A study of Rattus norvegicus with 56 samples.

Results

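Primary cultures of rat hippocampal neurons were compared on expression arrays 24 h after intermittent theta burst stimulation (iTBS) and 24 h after sham stimulation. The arrays were chosen by their sample titles alone: 3 titled iTBS_24H and 3 titled SHAM_24H, which is 6 of the 56 arrays of the series. In both groups the cells came from hippocampi of Sprague-Dawley rat embryos (E18), carried no transgene or deletion named in the labels, and were grown in Neurobasal medium with B27. For iTBS the dishes sat centred on an inverted magnetic coil, and for sham they were placed in the incubator with the coil moved away. The sample numbers in the labels fall into runs that are called series A to D here. Replicates 1, 2 and 3 of both groups lie in series B, C and D, so each iTBS array has a sham array of its own series, and these are called pairs. The labels do not say what a series is, nor that the replicates came from separate cultures or embryos, so the p-values measure the spread between these samples, which may in part be technical.

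In repetitive transcranial magnetic stimulation, a changing magnetic field induces current in nervous tissue. Theta burst protocols group the pulses into short high-frequency bursts that recur at the theta rhythm, a pattern taken from the stimuli that strengthen hippocampal synapses. When neurons are driven to fire, calcium entry activates kinases and factors such as CREB, and immediate-early genes (Fos, Egr1, Npas4, Arc) are transcribed within minutes and decay within hours. A second set of genes, such as Bdnf, follows them. Samples taken a day later therefore bear on slower changes, in receptors, channels, metabolism or the cells of the dish, rather than on the first wave itself.

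Levels are given as scaled log2 values: within each array the log2 processed signals were standardised and then put back on the log2 scale with a spread common to all arrays. A level of 0 is then the mean of an array, and a difference of 1 is close to 2-fold. Of all probes, 69.5%, 72.0% and 73.9% were well above background in sham replicates 1 to 3, and 72.5%, 70.8% and 76.3% in iTBS replicates 1 to 3. The 75th percentile of the processed signal was 2619 and 6092 in the pair of replicate 1, 4171 and 4330 in that of replicate 2, and 5470 and 6070 in that of replicate 3, sham first. The pair of replicate 1 was thus the most unequal in brightness, and the SD of its probe differences was 0.41, against 0.21 and 0.22 in the others (26506 probes well above background on all 6 arrays). Whether the brightness of sham replicate 1 set those differences was not tested.

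No transcript passed the test between iTBS and sham at 24 h. limma found 0 of 35694 probes (a percent called of 0) at an adjusted p under 0.05, with 197 probes (0.552%) at an unadjusted p under 0.05, 128 of them higher (0.359%) and 69 lower (0.193%) after iTBS. That split turned under 75th percentile scaling, where 51 of 173 such probes were higher. The criteria of the study's methods, as read here, also gave 0 probes, but how their intensity limit was applied is not settled, so this count says nothing of the calls the study made. The iTBS arrays lay wholly above the sham arrays for 500 probes (1.4%) and wholly below for 262 (0.734%). All 3 pairs were higher after iTBS for 5229 probes (14.6%) and lower for 4101 (11.5%). The differences of one pair hardly predicted those of another: over the 26506 probes well above background on all 6 arrays, Pearson's r was 0.061 between pairs 1 and 2, −0.017 between 1 and 3, and 0.0022 between 2 and 3, given as a description because probes of 1 array are not independent. In this fit, which does not use the pairs, the 95% interval of the difference lay within −1 and 1 for 18920 probes (53.01%). That is within a 2-fold difference either way, and for the rest this fit did not bound the difference that closely. It counts the gap between series as spread: the median SE was 0.40, against 0.23 with the series at each time in the model.

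Arrays differed more between series than within a pair. Over the 26506 probes above background on all 6 arrays, the median absolute difference was 0.24, 0.11 and 0.11 within pairs 1 to 3 and 0.31 to 0.47 between series, so that pair 1 was not far below the sham arrays of series B and C. For markers of oligodendrocytes, the cells that make myelin, the gap was wider. Mbp, which encodes myelin basic protein, was at 8.01, 9.91 and 2.60 in sham replicates 1 to 3 and at 7.61, 9.60 and 2.70 in iTBS replicates 1 to 3. Each iTBS level stood close to the sham level of its own series, and the groups overlapped entirely (difference −0.20 ± 2.50, SE, limma adjusted p = 1.0). Sox10, a transcription factor of the oligodendrocyte lineage, was at 5.76, 6.61 and 1.55 in sham and at 5.76, 6.67 and 1.01 after iTBS, again low only in replicate 3 of each group. Over the 9 myelinating oligodendrocyte markers above background on all 6 arrays, the median range across the 3 sham arrays was 3.94, while the median pair difference in size was 0.13. For the 8 progenitor markers these values were 3.09 and 0.084.

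**Figure D1:**
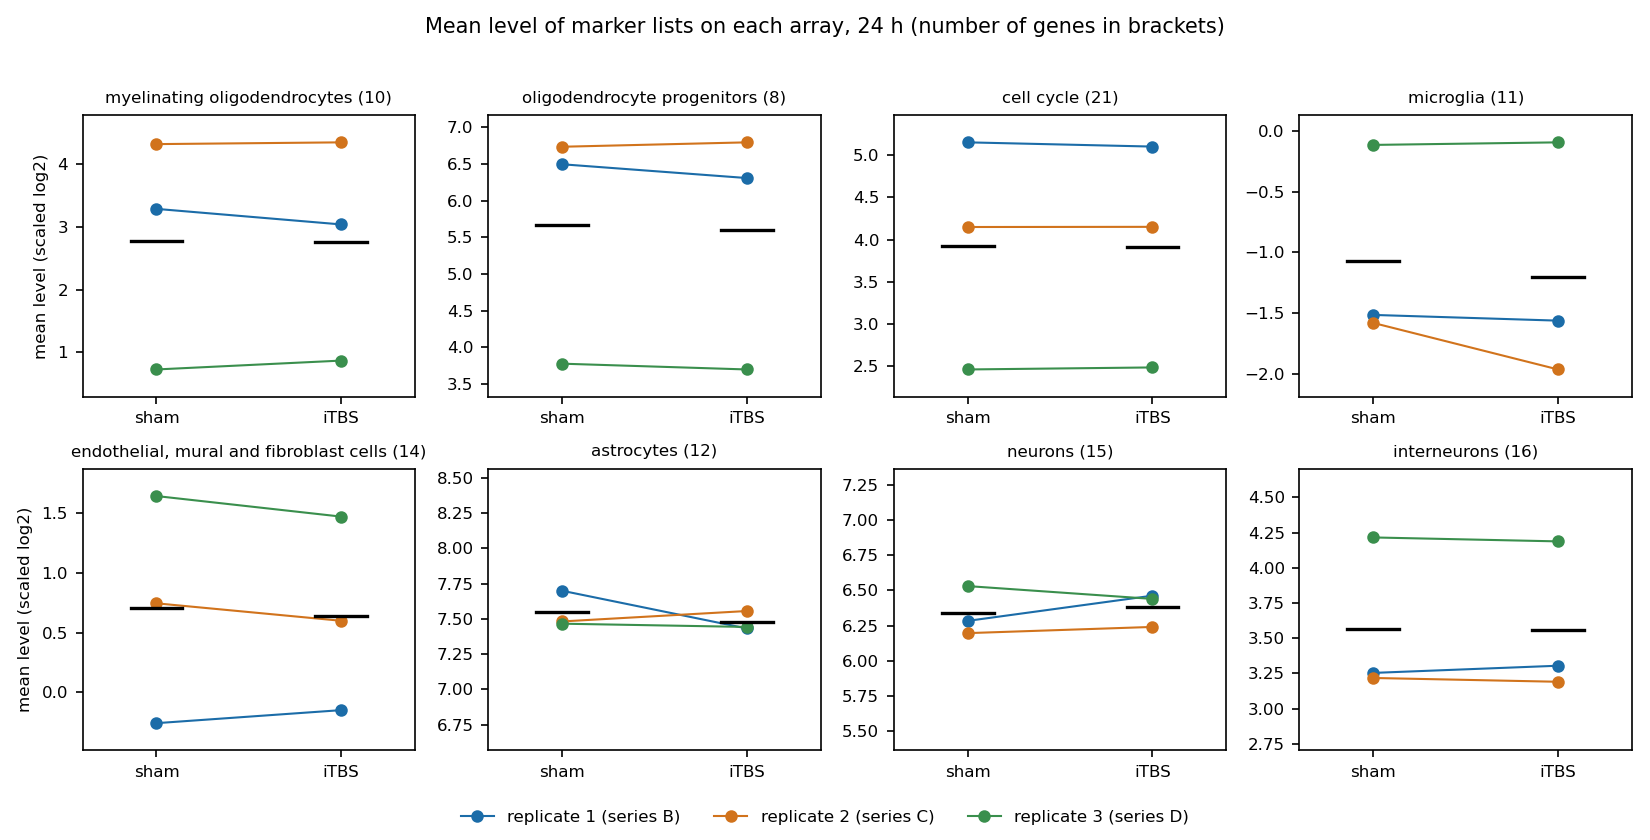
Mean level of 8 lists of marker genes (y axis, scaled log2) on each sham and iTBS array at 24 h, with a line joining the arrays of 1 series and a black bar at the mean of each group. The lines of the oligodendrocyte and cell cycle lists are nearly flat and span a wide range, while those of neurons and astrocytes lie close together. The oligodendrocyte lists lie lowest and the microglia list highest in replicate 3 of both groups.

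Cell cycle genes, which mark dividing cells, were also lowest in replicate 3 of both groups, but highest in replicate 1. Their mean level was 5.15, 4.15 and 2.46 in sham and 5.10, 4.15 and 2.49 after iTBS (21 genes), and 17 of the 21 ranged over more than 2 log2 units among the sham arrays alone. Mki67, the proliferation antigen, was at 6.70, 5.82 and 3.53 in sham and at 6.68, 5.87 and 3.63 after iTBS. RNA of dividing and oligodendrocyte-lineage cells was thus at a higher level in series B and C than in D, in both groups. In bulk RNA, fewer cells of a type and less RNA per cell cannot be told apart. Neuronal markers were steadier, with a mean level over 15 genes of 6.28, 6.20 and 6.53 in sham and 6.46, 6.24 and 6.44 after iTBS, and all 15 were well above background on all 6 arrays, as the label of neuronal cultures has it. The 12 astrocyte markers were also above background throughout, with means of 7.70, 7.48 and 7.47 in sham and 7.43, 7.56 and 7.44 after iTBS, so the dishes held glial RNA as well.

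Microglia markers were sparse. Of 11 tested, 5 were above background on all 6 arrays and Csf1r on none, and their mean level was −1.51, −1.58 and −0.12 in sham and −1.56, −1.96 and −0.096 after iTBS. Cx3cr1, P2ry12 and Itgam were lowest in replicate 3 of both groups, where the list mean was highest. Cx3cr1, the fractalkine receptor, was at 6.09, 4.96 and 2.79 in sham and 6.03, 4.53 and 2.58 after iTBS. Of the 14 endothelial, mural and fibroblast markers, Cldn5 and Flt1 were not well above background on any of the 6 arrays. Col1a2, a collagen chain of fibroblasts, was at 1.97, 5.39 and 7.35 in sham and at 1.65, 4.44 and 7.08 after iTBS, with pair differences of −0.32, −0.95 and −0.27 but with a series effect many times larger (difference −0.51 ± 1.95, adjusted p = 1.0). Whether these differences in marker level between series took part in any other difference described here was not tested.

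Immediate-early genes varied widely between series, and none passed the test between iTBS and sham. Fos, a subunit of the AP-1 transcription factor, was at −0.23, −1.19 and 2.73 in sham and at 0.56, −0.80 and 2.75 after iTBS. Replicate 3 was high in both groups, and the groups overlapped (difference 0.41 ± 1.35, adjusted p = 1.0). Egr1, a zinc finger factor induced by synaptic activity, was at 1.46, 1.11 and 4.57 in sham and at 1.24, 1.48 and 4.66 after iTBS, with the same replicate on top. Npas4, a factor that responds to calcium entry, was well above background on 1 of 3 arrays in each group, and in replicate 3 it was at −1.62 in sham and −1.64 after iTBS. Arc, whose product controls AMPA receptor uptake, was highest in replicate 1 instead, at 4.45, 1.76 and 2.88 in sham and at 5.09, 1.90 and 2.75 after iTBS (difference 0.22 ± 1.17). None of the 4 had groups that separated. The 95% interval of Fos in the fit that does not use the pairs, from −2.31 to 3.12, would have held a several-fold difference in either direction. That interval counts the gap between series as spread.

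**Figure D2:**
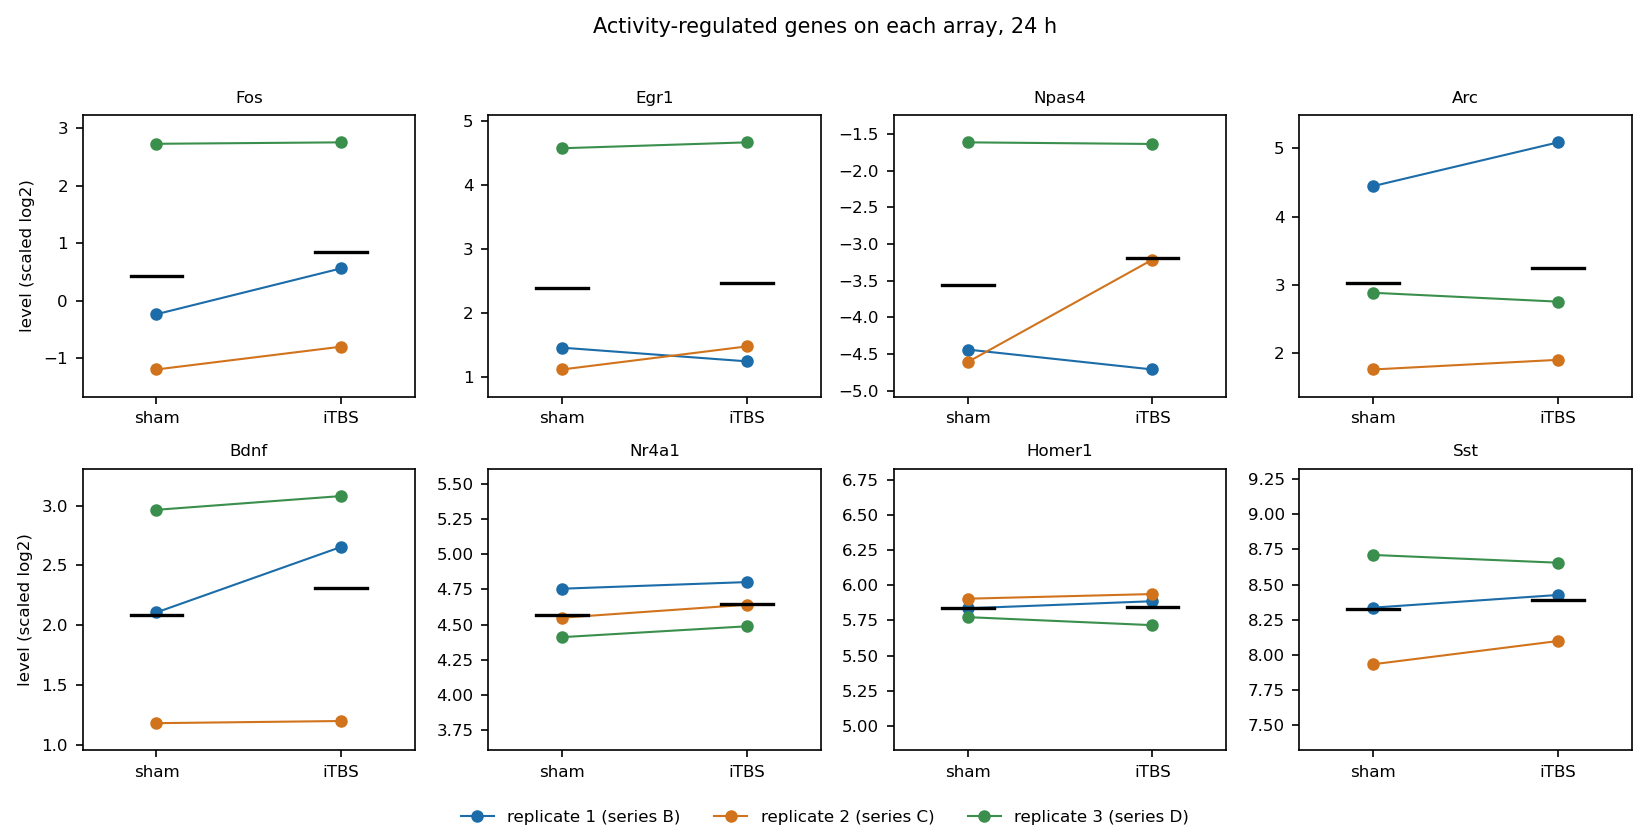
Level of 8 activity-regulated genes (y axis, scaled log2) on each sham and iTBS array at 24 h, with a line joining the arrays of 1 series and a black bar at each group mean. Fos, Egr1 and Npas4 are high in replicate 3 of both groups, while Nr4a1 and Homer1 lie together on all 6 arrays.

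No gene of the wider activity programme passed the test either. Of 15 activity-regulated transcription factors, 11 were higher and 4 lower after iTBS, 5 were higher in all 3 pairs and none lower in all, and 0 separated the groups. The background for genes was 15.7% higher and 9.79% lower in all 3 pairs, over 13888 genes with 1 probe each. The list's median difference was 0.084, against 0.028 over all genes, and its members ranged by a median of 1.39 among the sham arrays, for the 12 above background throughout. Egr2 was highest of these 12, at 0.29, −1.08 and 1.20 in sham and 0.90, −0.58 and 1.52 after iTBS, which is higher by 0.61, 0.50 and 0.32 in the pairs (limma adjusted p = 1.0 with and without the series in the model). Ier2 was lowest, at a difference of −0.28 ± 0.58 that came from replicate 1, where it was at 5.42 in sham and 4.60 after iTBS. Nr4a1, an orphan nuclear receptor, differed by only 0.05, 0.09 and 0.08 in the pairs.

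Of 23 effectors that activity induces, 13 were higher and 10 lower, with a median difference of 0.037. In all 3 pairs 5 were higher and none lower, against 15.7% and 9.79% over all genes. Bdnf, the neurotrophin, was at 2.11, 1.18 and 2.96 in sham and at 2.65, 1.20 and 3.08 after iTBS, higher in each pair but overlapping (difference 0.23 ± 0.84, adjusted p = 1.0). Crh, a stress neuropeptide, was higher by 0.16, 0.25 and 0.63 in the pairs. Pcsk1, a protease that matures neuropeptides, had the lowest difference of the list (−0.76 ± 0.61), and 1 array made it: sham replicate 1 was at 4.06, while the other 5 arrays lay between 1.41 and 2.13. Homer1, a scaffold of the postsynaptic density, lay between 5.72 and 5.94 on all 6 arrays, and the 95% interval of its difference ran from −0.30 to 0.32.

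Transmitter receptors were next, as the targets through which a late response could alter synapses. Over all genes, 57.7% were higher after iTBS, with 15.7% higher and 9.79% lower in all 3 pairs. Of 15 GABA receptor subunits tested, 11 were higher and 4 lower, 3 higher in all 3 pairs, and the median difference was 0.089. Gabrb2, a β subunit of the chloride channel that GABA opens, was highest at 4.85, 4.86 and 5.66 in sham and 5.41, 5.09 and 5.75 after iTBS (difference 0.30 ± 0.28, adjusted p = 1.0). Gabra2 was lowest, and only through replicate 1, where it was at 4.10 in sham and 3.15 after iTBS. Its second probe pointed the other way, with a difference of 0.24. Of 16 ionotropic glutamate receptor subunits, 10 were higher and 6 lower, with 5 higher and 2 lower in all 3 pairs and a median difference of 0.077. Grin2d, an NMDA receptor subunit, was lowest of the 15 above background on all 6 arrays, at 8.43, 8.33 and 8.01 in sham and 7.85, 8.08 and 8.00 after iTBS. Of the 8 metabotropic glutamate receptors, 6 were higher, 5 of them in all 3 pairs, and Grm8, a presynaptic receptor that damps release, was highest at −1.18, 0.50 and 0.70 in sham and −0.23, 0.69 and 0.95 after iTBS (difference 0.46 ± 0.45, adjusted p = 1.0).

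The study's own table marked 20 genes for iTBS at 24 h, and 18 of them had a tested probe. The study chose these genes on these samples, so their direction here is no independent evidence of a change. After iTBS 13 were higher and 5 lower, and in all 3 pairs 10 were higher and 1 lower (15.7% and 9.79% over all genes). None separated the groups, and none passed at an unadjusted p under 0.05 in the limma fit that does not use the pairs. With the series at each time in the model, 1 was higher and 0 lower at an unadjusted p under 0.05 (1.07% and 0.628% of all probes). Their median difference was 0.089, and in the pairs 0.10, 0.10 and 0.092. Grik1, a kainate receptor subunit, had the largest difference, at 0.38, 0.93 and 2.22 in sham and 1.21, 1.35 and 2.50 after iTBS. It was higher by 0.83, 0.42 and 0.28 in the pairs, but replicate 3 of sham stood above replicates 1 and 2 of iTBS (0.51 ± 0.57, 95% interval −0.63 to 1.65, adjusted p = 1.0). Gabbr2, a subunit of the metabotropic GABA receptor, showed how evenly a small difference could run, at 7.51, 7.34 and 7.10 in sham and 7.65, 7.51 and 7.27 after iTBS, which is 0.14, 0.17 and 0.17 in the pairs (adjusted p = 1.0). Its second probe, however, differed by −0.014.

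**Figure D3:**
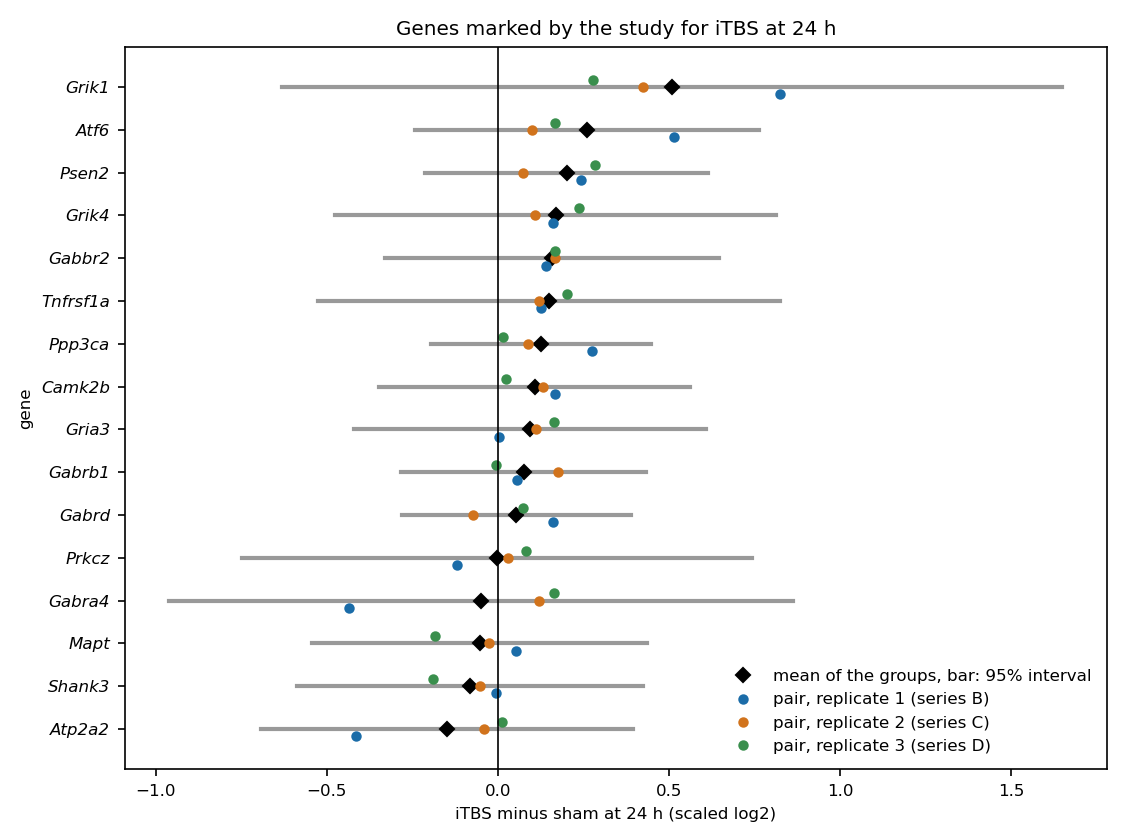
Difference between iTBS and sham at 24 h (x axis, scaled log2) for 16 of the 18 tested genes that the study's table marked for this comparison, with the 3 pairs as coloured points, the difference of the group means as a diamond and its 95% interval as a grey bar. All 16 intervals include 0, and all but that of Grik1 lie within −1 and 1. The intervals come from the fit that does not use the pairs.

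Among the other marked genes, Atf6, a sensor of misfolded protein in the endoplasmic reticulum, was higher by 0.52, 0.10 and 0.17 in the pairs, and Psen2, a presenilin of the γ-secretase, by 0.24, 0.07 and 0.29. Grik4 was higher by 0.16, 0.11 and 0.24 and the AMPA receptor subunit Gria3 by 0.0044, 0.11 and 0.17. For calcium signaling, Camk2b was higher by 0.17, 0.13 and 0.02 and the calcineurin subunit Ppp3ca by 0.28, 0.09 and 0.01. The cytokine receptor Tnfrsf1a was higher by 0.13, 0.12 and 0.20. Shank3, a postsynaptic scaffold, was the 1 gene lower in all 3 pairs, at differences of −0.0047, −0.052 and −0.19. The differences of Gabra4, Gabrb1, Gabrd, Prkcz, Mapt and Atp2a2 varied in sign between pairs. For 17 of the 18 the 95% interval of the fit that does not use the pairs lay within a 2-fold difference either way. Over the 11340 genes above background on all 6 arrays this held for 73.9%. The second probes of Atf6 and Gabbr2, both other probes of Atp2a2 and 1 of the other probes of Ppp3ca differed in the opposite direction.

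Ion channels and the release machinery are read against all genes, of which 57.7% were higher after iTBS (8016 of 13888). In all 3 pairs 15.7% of genes were higher and 9.79% lower. These shares are not matched for probe brightness. Of 28 potassium channel genes 25 were higher and 3 lower, 13 higher and 1 lower in all 3 pairs, with a median difference of 0.16 and pair medians of 0.27, 0.05 and 0.14. None of the 28 separated the groups or passed at an unadjusted p under 0.05. Kcnj6, a G protein-gated inward rectifier, was highest at 0.04, −0.20 and 0.88 in sham and 0.68, −0.03 and 1.13 after iTBS, and Kcnma1, the calcium-activated BK channel, was lowest, at −0.51 in pair 1 and close to 0 in the others. The pair medians of this list were above 0 under 75th percentile scaling, quantile normalization and normexp background correction, and its median ran from 0.086 to 0.21 when 1 array was left out. Of 22 sodium and calcium channel genes 14 were higher, with a median of 0.069, and Scn4b, its highest member, came from replicate 1 (0.04 in sham and 0.74 after iTBS). Of 23 genes of synaptic vesicle release 15 were higher, 6 in all 3 pairs, with a median of 0.099. Both lists were thus near the share of all genes, and under normexp pair 3 turned, to −0.0080 for vesicle release and −0.068 for the sodium and calcium channels. The vesicle release median also turned without sham replicate 1 (−0.051), sham replicate 2 (−0.00072) or iTBS replicate 3 (−0.085). Leaving out 1 array also unbalances the series, and without the whole pair of replicate 1, 2 or 3 that median was 0.031, 0.11 or 0.11. Sv2b, a vesicle glycoprotein, was at 3.84, 3.68 and 4.19 in sham and 4.10, 4.03 and 4.45 after iTBS, higher by 0.26, 0.34 and 0.27 (0.29 ± 0.32, adjusted p = 1.0).

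Postsynaptic scaffolds were evenly split, 10 higher and 10 lower, with a median of −0.0080. Nlgn1, the neuroligin of excitatory synapses, was the 1 scaffold whose groups did not overlap, at 2.85, 2.84 and 2.88 in sham and 3.43, 2.98 and 3.01 after iTBS (0.28 ± 0.33, adjusted p = 1.0), against a background of 1.2% of genes separated upwards. Of 19 genes of calmodulin, its kinases and calcineurin 12 were higher, with a median of 0.066, from Camk1 at −0.23 to Camk2d at 0.24.

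Genes of oxidative phosphorylation and of the cytosolic ribosome were lower after iTBS almost without exception, though none passed the test. All 73 ribosomal protein genes were lower, 69 of them in all 3 pairs, with pair medians of −0.67, −0.17 and −0.15. All 16 ATP synthase genes were lower, 13 in all 3 pairs, with pair medians of −0.54, −0.13 and −0.16. For respiratory complex I, 30 of 33 genes were lower, 22 in all 3 pairs, and for complexes II to IV 21 of 23, with 15 in all 3 pairs. Over the 2020 genes among the brightest 10% of probes, 74.3% were lower, 25.9% lower and 4.55% higher in all 3 pairs, and 0.941% separated downwards, and the brightest bin had pair medians of −0.19, 0.0054 and −0.090. Bright genes were thus lower too in pairs 1 and 3, while in pair 2 the bin median was 0.0054 and the ribosomal median −0.17. The median level of this bin was 7.26. The mean level of the ribosomal list ran from 9.61 (iTBS replicate 3) to 10.59 (sham replicate 1). The bin was thus not matched in level to that list, and the part of brightness in these lists was not tested. The size depended on the arrays used: without sham replicate 1 the median was −0.14 for the ribosomal list (−0.32 with it), −0.015 for ATP synthase (−0.27), 0.0096 for complex I (−0.18) and −0.0066 for complexes II to IV (−0.16). Without sham replicate 3 these medians were further from 0, at −0.59, −0.50, −0.39 and −0.40. Without iTBS replicate 3 these medians were −0.17, −0.068, −0.017 and 0.025. Leaving out a single array also unbalances the series, and without the whole pair of replicate 1 they were −0.16, −0.15, −0.11 and −0.11.

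**Figure D4:**
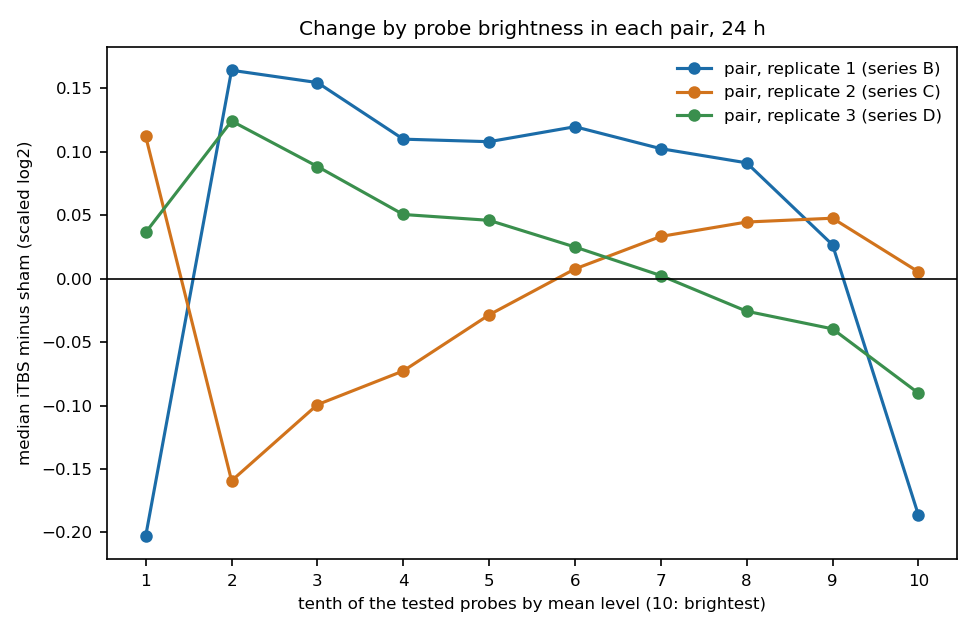
Median difference between iTBS and sham at 24 h (y axis, scaled log2) in 10 equal bins of the tested probes ordered by mean level (x axis), 1 line per pair. In the brightest bin the medians are −0.19, 0.0054 and −0.090 in the pairs of replicates 1, 2 and 3, and in the dimmest −0.20, 0.11 and 0.037.

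The size of these differences depended on the scaling. With each array set to its 75th percentile, the ribosomal genes had pair medians of −0.33, −0.24 and −0.032. With quantile normalization, which gives all arrays the same distribution, the pair medians of the ribosomal genes were 0.00, −0.045 and 0.00, and with normexp they were 0.011, −0.045 and −0.0096. The respiratory lists stayed below 0 in all 3 pairs but shrank: under quantile normalization the ATP synthase genes had pair medians of −0.057, −0.057 and −0.045, complex I −0.048, −0.073 and −0.039, and complexes II to IV −0.054, −0.044 and −0.052. The brightest bin of probes was then at 0.011, 0.0077 and −0.0077. Quantile normalization gives equal ranks the same value on every array, and the ribosomal genes lay near the top of each array. Their pair medians near 0 may thus follow from the method and do not decide whether these transcripts were lower. With the deposited z-scores the ribosomal median was −0.23. Thus a lower level of ribosomal protein transcripts depended on the scaling, and that of respiratory transcripts was much smaller once the distributions were matched.

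Single members showed where the scaled values came from. Atp5f1e, the ε subunit of ATP synthase, was at 10.30, 10.02 and 9.54 in sham and at 8.94, 9.66 and 9.35 after iTBS, with pair differences of −1.36, −0.36 and −0.19 (−0.64 ± 0.28, adjusted p = 1.0). Both of its probes were lower. Rplp1, a stalk protein of the ribosome, was at 12.12, 11.47 and 11.04 in sham and at 10.99, 11.27 and 10.74 after iTBS, and Cox6c, a subunit of cytochrome c oxidase, at 10.68, 10.32 and 9.59 in sham and 9.75, 10.06 and 9.36 after iTBS. The groups did not overlap for Ndufs8, a complex I subunit at 5.42, 4.94 and 4.84 in sham and 4.81, 4.82 and 4.71 after iTBS. The same held for Ndufv3, at 7.01, 6.81 and 6.64 in sham and 6.58, 6.61 and 6.44 after iTBS, and for Atp5if1, the inhibitor of ATP synthase, at 9.0, 8.62 and 8.62 in sham and 8.42, 8.39 and 8.51 after iTBS. Sham replicate 1 was the highest array in all 3, and it was also the array with the weakest signal.

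**Figure D5:**
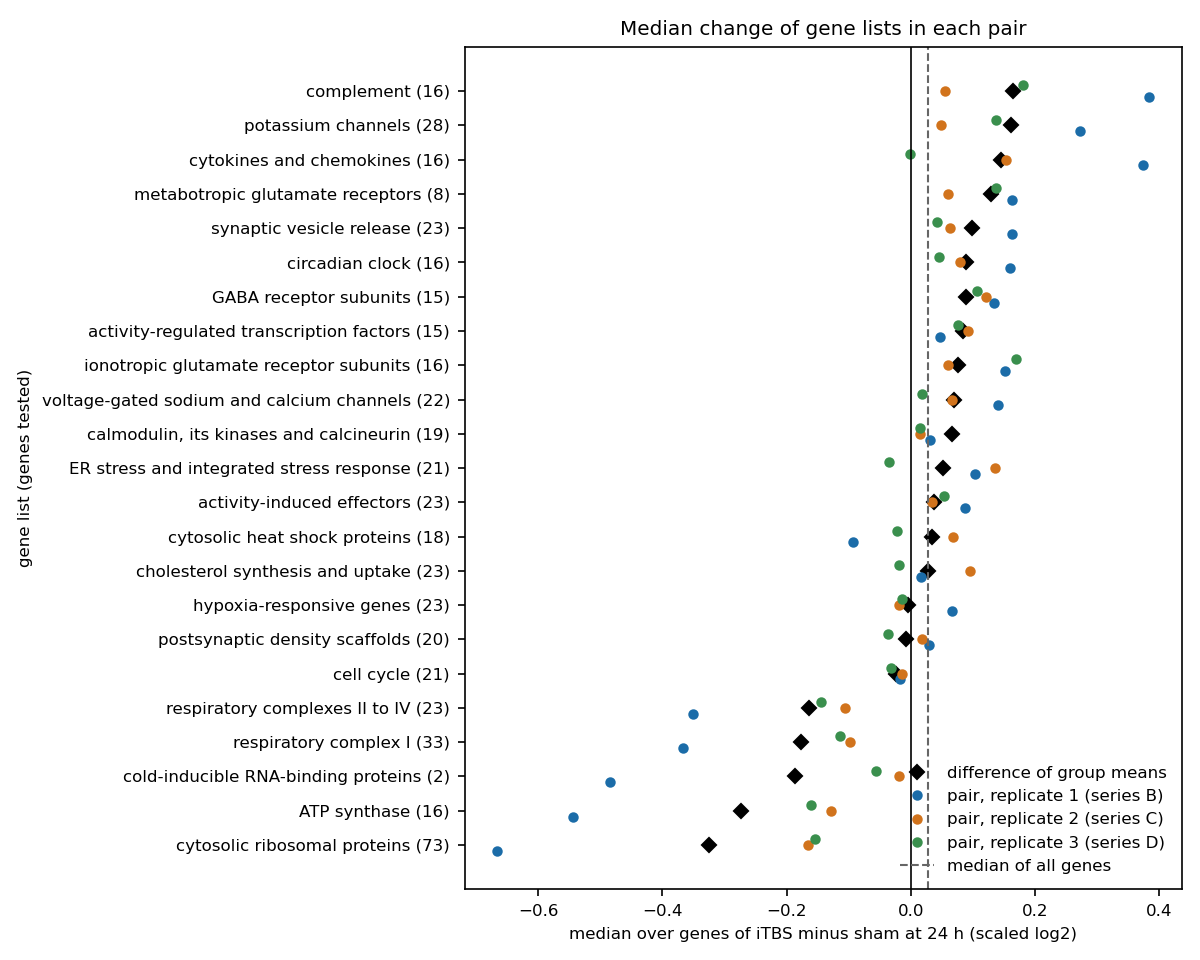
Median difference between iTBS and sham at 24 h (x axis, scaled log2) over the genes of each of 23 lists, with the 3 pairs as coloured points and the difference of the group means as a diamond. The ribosomal, ATP synthase and respiratory lists lie to the left, furthest in the pair of replicate 1, and the dashed line marks the median of all genes at 0.028.

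No stress, clock or immune gene of the lists passed the test. Of 18 cytosolic heat shock genes 10 were higher and 8 lower (median 0.034), and the pairs disagreed in sign. Hspa8, the constitutive chaperone, had pair differences of −1.09, −0.02 and −0.27, and Bag3, its stress-induced partner, was higher by 0.63, 0.33 and 0.02. Of 21 genes of the endoplasmic reticulum stress response 16 were higher (median 0.051), from Phgdh at −0.29 to Atf6 at 0.26. The cold-inducible genes Cirbp and Rbm3 were at differences of −0.19 and −0.18, both made mainly by replicate 1. Of 16 clock genes 12 were higher (median 0.089), and Per2 differed by 0.71 in pair 1 but by −0.0099 and 0.035 in the others. Cholesterol genes split 15 to 8 and hypoxia genes 11 to 12, with medians of 0.028 and −0.0035.

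Complement genes were higher in 12 of 16, 7 of them in all 3 pairs (15.7% over all genes), with a median of 0.17. Only 6 of the 16 were above background on all arrays. The median turned when 1 array was left out, to −0.085 without sham replicate 1, −0.13 without sham replicate 2 and −0.39 without iTBS replicate 3, and reached 0.70 without sham replicate 3. Leaving out 1 array also unbalances the series. Without the whole pair of replicate 1, 2 or 3 the complement median was 0.068, 0.26 or 0.20. Among these 6, Cd55, which protects cells from complement, was at −1.36, −0.54 and 0.21 in sham and −1.0, −0.17 and 0.45 after iTBS. C2 was higher by 0.16, 0.14 and 0.16. Cytokines and chemokines were higher in 14 of 16 (median 0.15), with 10 of the 16 above background on all 6 arrays. Their pair medians were 0.37, 0.15 and −0.0014. Cxcl1, a chemokine that attracts neutrophils, was at −0.66, −2.27 and 0.14 in sham and 0.33, −1.72 and 0.31 after iTBS (0.57 ± 1.70). The cytokine median also turned, to −0.10 without sham replicate 2 and −0.093 without iTBS replicate 3. Without the whole pair of replicate 1, 2 or 3 it was 0.053, 0.13 or 0.26. Il1a, Il1b, Il6 and Ccl4 had no tested probe.

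Some probes separated the groups without passing the test. Of the 26506 probes above background on all 6 arrays, 271 (1.02%) separated upwards and 137 (0.517%) downwards. Only genes with a symbol, each by 1 probe, were ranked among these. Upwards, Rmdn2, a regulator of microtubule dynamics, had the smallest unadjusted p of the ranked genes in limma. Rmdn2 was at −0.21, 0.14 and −0.68 in sham and 0.67, 0.16 and 0.82 after iTBS (0.80 ± 0.31, limma adjusted p = 1.0). Its groups cleared each other by 0.02, since sham and iTBS were nearly equal in replicate 2. Rhobtb2 rested on 1 array, iTBS replicate 3 at 2.33, while the other 5 arrays lay between −0.26 and 0.03. Slc8a3, a sodium-calcium exchanger of neurons, was at −1.88, −1.71 and −2.11 in sham and −0.87, −1.44 and −1.70 after iTBS. Tmod1, an actin-capping protein, was higher by 1.12, 0.72 and 0.37 in the pairs, and Klhl26 by 0.85, 0.31 and 0.61. Hormad2 again rested on 1 array, iTBS replicate 2 at −0.10 against −2.42 to −1.38 on the rest, and Lce1e differed by 0.93, 0.09 and 0.58, with its second probe at a difference of −0.34.

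Downwards, the olfactory receptor gene Olr1400 had the smallest unadjusted p of the ranked genes in limma. Olr1400 was at −0.30, −1.13 and −1.23 in sham and −1.30, −1.53 and −1.42 after iTBS (−0.53 ± 0.24, limma adjusted p = 1.0). Cdh5, the cadherin of endothelial cells, was at −0.59, −0.37 and −0.39 in sham and −0.67, −0.82 and −0.74 after iTBS. Mrpl53, a mitochondrial ribosomal protein, had pair differences of −0.21, −0.11 and −0.22, and Ugt2a1 of −0.56, −0.52 and −0.03. LOC102548752 had pair differences of −0.22, −0.03 and −1.31, mainly in replicate 3. When each iTBS array was compared with the sham array of its own series (a block in limma), 382 probes (1.07%) were higher and 224 (0.628%) lower at an unadjusted p under 0.05. Under 75th percentile scaling with the same block, an alternative chosen after seeing the data, 137 of 580 such probes were higher. The genes named next come from the block fit with the main scaling. Abca5, a lipid transporter of the ABC family, had the smallest p among the genes lower in all 3 pairs and above background throughout. It was at −0.59, 0.72 and 1.18 in sham and −0.74, −0.23 and 0.47 after iTBS, a difference of −0.60 (limma adjusted p = 1.0), and its second probe differed by 0.0032. Itch, an E3 ubiquitin ligase, had pair differences of −0.84, −0.17 and −1.26 and Taco1 of −0.27, −0.07 and −0.85, while Usp49 was higher by 0.11, 0.32 and 1.35 and Efcab11 by 0.76, 0.49 and 0.78.

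The smallest p of the whole comparison belonged to a probe without a gene symbol, A_44_P513101, named here after its values were seen. It was at −4.60, −4.87 and −5.00 in sham and at −2.40, −1.73 and −1.52 after iTBS (adjusted p = 0.353). The probe was well above background on all 3 iTBS arrays and on no sham array, so the difference is a bound: iTBS was at least 2.53-fold higher. Those 3 arrays alone meet the limit for a probe to be tested, so it could enter the test through the group where it was high. Its processed signals were 3.0, 3.03 and 3.72 in sham and 21.4, 27.4 and 42.1 after iTBS, near the floor of the array. After the other intervals of 0, 2, 8 and 48 h, its iTBS difference was 0.67, 0.094, −0.012 and −0.52.

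The difference at 24 h was also set against that at the other times, which rest on other arrays. limma found 0 of 35694 probes whose iTBS difference at 24 h differed from its mean at 0, 2, 8 and 48 h, with 279 (0.782%) at an unadjusted p under 0.05. Atp5f1e had differences of 0.68, 0.45, −0.29 and 0.28 at 0, 2, 8 and 48 h, against −0.64 at 24 h, so it was higher after iTBS at 3 of the other 4 times (interaction −0.92, limma adjusted p = 1.0). Rplp1 had 0.92, 0.86, −0.47 and 0.24 at those times. Fos was at −0.75, −0.35, 0.28 and −0.13 at those times, and Grik1 at −0.33, −0.066, 0.085 and −0.18, with an adjusted p of 1.0 in limma for the difference of each from 24 h.

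Stimulation at 1 Hz, the other protocol of the study, was compared directly with iTBS at 24 h. The 3 arrays of 1 Hz at 24 h lie in series A, C and D, so this comparison sets series A against B in part. limma found 0 of 35694 probes, with 482 (1.35%) at an unadjusted p under 0.05. Between iTBS and 1 Hz, Fos differed by −0.13 ± 1.35, Grik1 by 0.077 ± 0.57, Gabbr2 by 0.14 ± 0.24 and Atp5f1e by −0.013 ± 0.28 (iTBS minus 1 Hz, SE, adjusted p = 1.0 for each).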

How the data were processed

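RNA of 56 samples was hybridised to 1-colour Agilent rat arrays. The authors scanned the arrays with Feature Extraction 12.0.3.1, and the deposited intensity used here is its processed signal. The authors also deposited z-scores per array, a score on the log scale, which were used as an alternative. The array design gives build rn4, and no coordinates were used. Probes were named through their accession and RefSeq (GRCr8), which matched 21109 of 45598 probes (46.3%).

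Outlier spots were left out, spots of 1 probe were averaged as log2 of the deposited processed signal, and z-scores within each array were rescaled by 4.06, the median over arrays of their SD. Probes well above background on at least 3 of 55 arrays were tested (35694 probes, with 9484 below that and 420 without a value). 1 array (1Hz_2H replicate 2) was left out for its failed grid. Group means were fitted over 55 arrays with limma 3.58.1 in R 4.3.3 (39 residual degrees of freedom), with Benjamini-Hochberg adjustment over all tested probes. The script was tested on simulated data. The number of arrays limits the precision.

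Sham and iTBS samples of 24 h with the same replicate number share a series in the labels. Their deviations from the group means correlated at 0.62, 0.53 and 0.78, so the numbers pair the samples, and the series was used as a block in an alternative. No mean signal column was used, so normexp took the median signal and the local background.

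The members and gene lists were chosen with earlier results of these data known. Named genes were those marked by the study for iTBS at 24 h and Fos, Arc, Egr1 and Npas4; the 8 in each direction with the smallest p among those above background whose groups did not overlap; the 5 in each direction with the smallest blocked p and 3 pairs of one direction; and the highest and lowest member of each list. Bdnf, Nr4a1, Homer1, Mki67, P2ry12, Itgam, Csf1r, Cldn5, Flt1 and H2bu1 were chosen after their values were seen. A gene with several probes is represented by 1 of them. Of 39 named genes with several, 12 had probes of both signs. Some genes that this rule names are not reported here.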

Additional observations from a re-analysis of the deposited data

How the results depend on the processing

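Of 24 other settings of the limma fit, 23 gave 0 probes at an adjusted p under 0.05, with 22 to 1211 probes at an unadjusted p under 0.05. Leaving out 1 array at a time gave 0 to 1 probes. Without sham replicate 2 the probe of H2bu1, a histone gene, passed at a difference of 1.77 (adjusted p = 0.0128), against 1.2 ± 0.31 (adjusted p = 1.0) with it. With a replicate block (the series within each time point), limma gave 0 probes (606 unadjusted), and with the 6 arrays alone and the block 0 (1211 unadjusted), so the block changed no call. The criteria of the study's methods gave 0 probes, and without their limit on the mean z-score, an alternative chosen after seeing the data, 14. The cause was not tested. Of the 110 named genes, 50 kept their sign under all settings tried and 0 passed under any. Of the 37 lists, 8 kept the sign of their median when any 1 array was left out, and 26 when any 1 pair was. The slides held both groups for replicate 1 alone within a series, so that pair is the within-slide value, and the scan date is the slide. The median SE was 0.40 (0.23 with the block). With 3 arrays a group the probe with the smallest p, at a difference of 2.94, did not pass over all probes. Its sham signals were not well above background, so that difference is no exact measure of what the test could detect.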
